A study of Mus musculus with 6 samples.

Results

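The chemokine ligands and receptors of the mouse were followed across mammary cell populations of 2 genotypes. They were taken by gene symbol, as every gene on the array whose name begins with Ccl, Cxcl, Ccr, Cxcr or Cx3c followed by a number, the like-named receptors Ccrl1, Ccrl2 and Ccr1l1 included. This gave 51 of the 27962 genes on the array, and the probe with the highest mean sample signal stood for each gene. A filter on dim probes kept 49 of them among 25062 genes: 13 CXC ligands, 19 CC ligands, the CX3C ligand and 16 receptors. The ligand Ccl22 and the receptor Ccr1 were not well above background on any array and were not tested.

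Chemokines are small secreted proteins that steer the migration of cells bearing the matching receptors, which are coupled to G proteins. They are grouped by the spacing of the first cysteines into CXC, CC and CX3C ligands, and the receptors are named for the class they bind. In the mammary gland they are known from the traffic of leukocytes into the stroma and epithelium, and several are made by epithelial cells, fibroblasts and endothelium in response to inflammatory signals.

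The cells came from virgin C57/B6 mice. There were 6 groups with 1 array each: P4 cells of mice heterozygous for a knockout of ΔNp63 (het P4) and of wild-type mice (WT P4), P5 cells of both genotypes (het P5, WT P5), and total mammary epithelial cells of both genotypes (het MEC, WT MEC). P4 is the sorted CD24+CD29hi fraction, enriched for mammary stem cells (MaSC), and P5 the CD24+CD29lo fraction, enriched for luminal progenitors. MEC was not enriched. ΔNp63 is the class of p63 isoforms without the N-terminal transactivation domain and is known as a regulator of basal epithelial cells. The series title names mammary stem cell activity as its subject, so the genotype and the P4 and P5 populations are the comparisons of the design. How many mice gave the RNA of an array is not in the labels, nor is it stated whether the deletion affects all cells of the mouse.

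No group had a replicate. A value is the log2 ratio of the sample, labelled with Cy5, over a common reference RNA from a mix of 11 mouse cell lines, labelled with Cy3; no array had the dyes swapped. Ratios of different genes are not comparable as levels, since the reference holds each gene in its own amount. The tests are from limma fits of population and genotype over the 6 arrays with 2 residual degrees of freedom, with p adjusted over all 25062 genes, and a gene was called at an adjusted p below 0.05. Differences between het and WT within a population set 1 array against 1 and have no test. Spots printed 10 times on each array gave a technical SD of 0.13 for a log2 difference, which does not cover differences between animals. The percentage of spots well above background in Cy5 was 74.3 in WT P4 and at most 89.8 (het MEC), and 42 (WT P4) to 49 (both MEC arrays) of the 51 genes were well above background on an array. The sorted samples shared slide 1 and the MEC samples slide 2, so slide and sorting cannot be told apart. On both slides the het sample lay at a later position than its WT counterpart, so position and genotype cannot be told apart.

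The labelled populations were checked on marker lists. All 8 basal markers, among them Krt5, Krt14 and Trp63, rose in P4 relative to P5, and 8 of 10 luminal markers fell. The gene that encodes ΔNp63, Trp63, had log2 ratios of 5.48 in het P4 and 5.99 in WT P4, 0.89 in het P5 and 0.54 in WT P5, and 2.66 in het MEC and 3.71 in WT MEC. Trp63 was lower in the het array of P4 and MEC, and 0.35 higher in that of P5. The genotype difference over populations was not called (limma adjusted p = 0.55). The files do not say whether the probe lies in the part of the gene that the knockout removes.

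**Figure D1:**
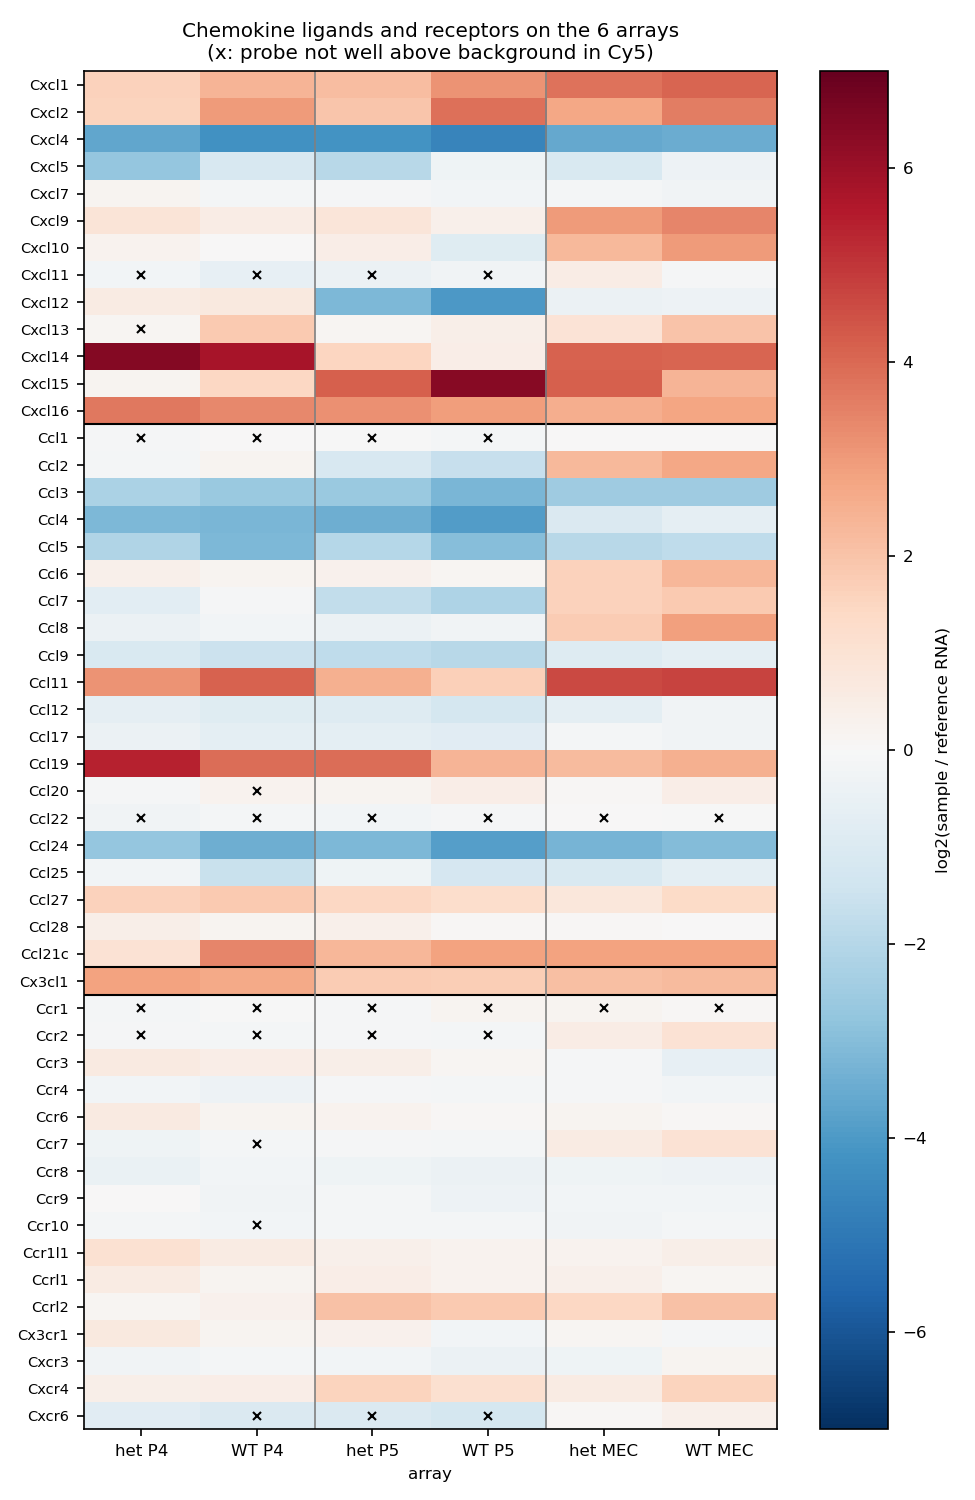
Log2 ratio of sample over reference RNA (colour) for 50 of the 51 chemokine genes (rows, by class: CXC ligands, CC ligands, the CX3C ligand, receptors) on the 6 arrays (columns). Crosses mark probes not well above background in Cy5. Cxcl14 and Cxcl12 are higher in both P4 arrays than in both P5 arrays, and Ccl2, Ccl7, Ccl8, Cxcl9 and Cxcl10 are highest in the MEC arrays.

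Between the sorted populations, 3 CXC ligands stood far apart: Cxcl14 and Cxcl12 rose in P4 relative to P5, and Cxcl15 fell. In all, 5 of 49 chemokine genes rose, against 7.59% of all genes tested, and 2 of 49 fell, against 7.54%. Calls in either direction came to 7 of 49, against 15.1% of all genes, so the class as a whole held no more calls than that background. The median difference was 0.14 over the 49 genes and 0.07 over all genes on the log2 scale.

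Cxcl14, a CXC ligand made by many epithelia, had log2 ratios of 6.42 in het P4 and 5.77 in WT P4, against 1.5 in het P5 and 0.47 in WT P5. The MEC arrays lay between, at 4.14 in het MEC and 4.07 in WT MEC. P4 and P5 did not overlap, and the difference was 5.11 ± 0.25 (SE; limma adjusted p = 0.0021). Its raw Cy5 signals were 29771 in het P4 and 54750 in WT P4, against 335 in het P5 and 304 in WT P5, and 12097 in het MEC and 33279 in WT MEC. The Cy3 signals of the same spots moved in the same direction although the reference was common: 2287 in het P4 and 3948 in WT P4, against 315 in het P5 and 403 in WT P5, with 478 in het MEC and 994 in WT MEC. In Cy5 alone the difference of P4 from P5 was 7.49.

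Cxcl12, the ligand of Cxcr4, keeps hematopoietic and other progenitor cells in their niches and is abundant in stroma. It stood at log2 ratios of 0.59 in het P4 and 0.71 in WT P4, against -3.14 in het P5 and -3.99 in WT P5, with -0.41 in het MEC and -0.35 in WT MEC. Both P5 arrays were far below the other 4 arrays. The difference of P4 from P5 was 4.22 ± 0.27 (SE; limma adjusted p = 0.0027), and the gene's other probe gave 3.61. Its receptor Cxcr4 had log2 ratios of 0.40 in het P4 and 0.45 in WT P4, 1.57 in het P5 and 1.11 in WT P5, and 0.59 in het MEC and 1.54 in WT MEC. Both P4 arrays lay below all others, but the difference of -0.92 ± 0.34 was not called (SE; limma adjusted p = 0.15). Cmkor1, an older symbol of the atypical scavenging receptor Cxcr7 that also binds Cxcl12, lies outside the symbol rule and was on the list of related pathway genes. It had log2 ratios of 2.63 in het P4 and 2.59 in WT P4, against -0.61 in het P5 and -1.20 in WT P5, with 2.11 in het MEC and 2.36 in WT MEC. It rose by 3.52 ± 0.22 in P4 relative to P5 (SE; limma adjusted p = 0.0027), the same direction as Cxcl12.

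Among the CC ligands, the monocyte attractants Ccl2 and Ccl7, neighbours on chromosome 11, rose in P4 relative to P5. The log2 ratios of Ccl2 were -0.14 in het P4 and 0.22 in WT P4, against -1.10 in het P5 and -1.63 in WT P5, with 2.27 in het MEC and 2.72 in WT MEC. Those of Ccl7 were -0.73 in het P4 and -0.06 in WT P4, against -1.74 in het P5 and -2.14 in WT P5, with 1.63 in het MEC and 1.82 in WT MEC. The 3 populations did not overlap for either gene, with MEC highest and P5 lowest. The differences of P4 from P5 were 1.40 ± 0.27 for Ccl2 (SE; limma adjusted p = 0.031) and 1.55 ± 0.27 for Ccl7 (limma adjusted p = 0.023). With each array centred on its median in place of loess, neither was called.

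Cx3cl1, the CX3C ligand, which is made as a membrane-bound protein and shed, had log2 ratios of 2.83 in het P4 and 2.63 in WT P4, against 1.80 in het P5 and 1.75 in WT P5, with 2.10 in het MEC and 2.23 in WT MEC. It rose by 0.96 ± 0.14 in P4 relative to P5 (SE; limma adjusted p = 0.016). Its other probe, which was well above background on 4 of 6 arrays, gave -0.33. The receptor of this ligand, Cx3cr1, known from monocytes and macrophages, had 0.68 in het P4 and 0.18 in WT P4, 0.32 in het P5 and -0.19 in WT P5, and 0.11 in het MEC and -0.10 in WT MEC. P5 overlapped with P4 and with MEC, while both P4 arrays lay above both MEC arrays. No difference of P4 from P5 was called (limma adjusted p = 0.16), nor one of P4 from MEC.

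The 2 genes that fell in P4 relative to P5 were a CXC ligand and an atypical receptor. Cxcl15, known in the mouse as the lung neutrophil attractant lungkine, had log2 ratios of 0.18 in het P4 and 1.45 in WT P4, against 4.18 in het P5 and 6.35 in WT P5, with 4.19 in het MEC and 2.40 in WT MEC. Its difference of P4 from P5 was -4.46 ± 0.93 (SE; limma adjusted p = 0.037), and its other probe gave -3.41. With local backgrounds as given it was -4.67 and was not called (limma adjusted p = 0.069). The large standard error comes with genotype differences that ran in opposite directions in the sorted and MEC samples. Ccrl2, a receptor that does not signal in the usual way and presents the attractant chemerin, had 0.11 in het P4 and 0.30 in WT P4, against 2.03 in het P5 and 1.83 in WT P5, with 1.46 in het MEC and 2.04 in WT MEC. Its difference of P4 from P5 was -1.73 ± 0.21 (SE; limma adjusted p = 0.010). It was the only 1 of the 16 receptors called in this comparison.

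**Figure D2:**
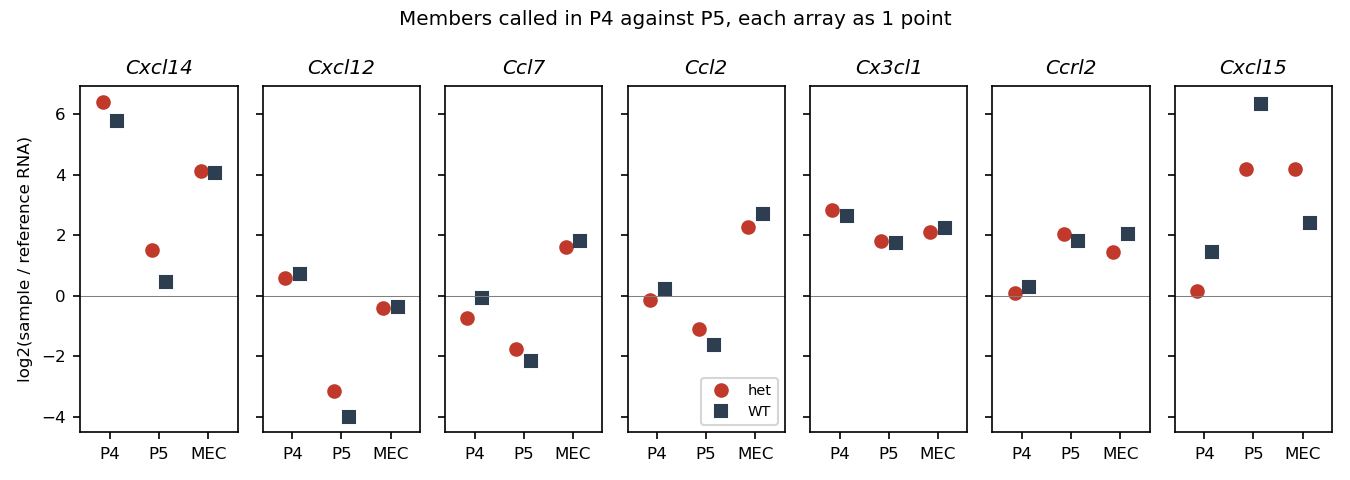
Log2 ratio of sample over reference RNA (y axis) on each array for the 7 chemokine genes called in P4 against P5, by population (x axis); red circles are het arrays and dark squares WT arrays, 1 point per array. Cxcl14, Cxcl15 and Cxcl12 show the widest gaps between P4 and P5, and Cxcl15 also shows the widest gaps between genotypes of the same population.

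The other 42 chemokine genes were not called between the sorted populations, with differences from -0.92 (Cxcr4) to 1.57 (the eosinophil attractant Ccl11). Of 27 listed chemokine signalling and inducing genes tested, 1 rose and 5 fell in P4 relative to P5 (all genes: 7.59% and 7.54%). The one that rose was Csf1, the macrophage growth factor, by 1.25. The cytokine Tnf, known to induce many chemokines through NF-kB, fell by 2.27, and Nfkbia, the NF-kB inhibitor and target, fell by 1.31. Csf3, the granulocyte growth factor, fell by 1.20, and the leukocyte signalling genes Dock2 and Pik3cg had differences of -0.75 and -0.62. Among 9 tested ligands and receptors outside the symbol rule, Cmkor1 rose and Cmtm8, a gene of the chemokine-like factor family, fell by 3.95. Beside these differences, fibroblast markers rose in P4 in 4 of 10 cases and fell in none. The summed fibroblast Cy5 level was 41545 in het P4 and 31033 in WT P4, against 21257 in het P5 and 10860 in WT P5. The part of stromal RNA in the Cxcl12, Ccl2 and Ccl7 values was not tested. In these bulk samples, fewer cells of a type and less RNA per cell cannot be told apart.

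No gene was called in P4 against P5 without the het P4 or the WT P4 array, and 3 chemokine genes were called without WT P5. The 4 sorted arrays alone gave 20 calls, on 1 residual degree of freedom, among 7140 of all genes; leaving out 1 MEC array gives this same fit. Median centring gave the same total of 7, with 3 higher and 4 lower in P4.

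Relative to unsorted MEC, most chemokine genes called in the sorted cells were lower. In P4 against MEC, 13 of 49 fell, against 8.47% of all genes, and 4 rose, against 9.43%; in either direction this was 17, against 17.9% of all genes. In P5 against MEC, 13 fell, against 4.28% of all genes, and none rose, against 2.11%; either way the background was 6.38%. Both comparisons share the MEC arrays. The medians over the 49 genes were -0.36 in P4 and -0.39 in P5, against 0.05 and 0.02 over all genes. The 33 ligands had medians of -0.49 in P4 and -0.57 in P5, and the 16 receptors -0.04 in P4 and 0.00 in P5.

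The CC ligands that fell in both populations were Ccl2, Ccl4, Ccl6, Ccl7 and Ccl8. Ccl2 was -2.46 ± 0.27 in P4 and -3.86 ± 0.27 in P5 relative to MEC on the log2 scale (SE; limma adjusted p = 0.0097 and 0.012). Its raw Cy5 signals were 2926 in het P4 and 6172 in WT P4, and 2042 in het P5 and 2737 in WT P5, against 40396 in het MEC and 109122 in WT MEC. For Ccl7 the differences were -2.11 ± 0.27 in P4 and -3.67 ± 0.27 in P5 (SE).

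Ccl8, a monocyte attractant, had log2 ratios of -0.40 in het P4 and -0.17 in WT P4, and -0.39 in het P5 and -0.25 in WT P5, against 1.78 in het MEC and 2.86 in WT MEC. The differences were -2.61 ± 0.26 in P4 and -2.64 ± 0.26 in P5 (SE; limma adjusted p = 0.0086 and 0.015). Ccl4, a macrophage product, had -3.14 in het P4 and -3.18 in WT P4, and -3.43 in het P5 and -3.92 in WT P5, against -1.01 in het MEC and -0.60 in WT MEC. It fell in both, with differences of -2.35 in P4 and -2.87 in P5, whereas Ccl3, its neighbour on chromosome 11, was not called, at 0.09 in P4 and -0.40 in P5. Ccl6, a CC ligand of myeloid cells, had 0.38 in het P4 and 0.16 in WT P4, and 0.28 in het P5 and 0.13 in WT P5, against 1.60 in het MEC and 2.31 in WT MEC. Its differences of -1.69 in P4 and -1.75 in P5 were both called.

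Ccl11, known as eotaxin, fell by 2.61 ± 0.42 in P5 (SE; limma adjusted p = 0.035). Its log2 ratios were 3.16 in het P4 and 4.14 in WT P4, and 2.50 in het P5 and 1.65 in WT P5, against 4.64 in het MEC and 4.72 in WT MEC. The difference of P4 from MEC was -1.03 and was not called. All 4 sorted arrays lay below both MEC arrays. The scanner software's own log ratio gave -0.97 for P5 against MEC, which was not called.

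Among the CXC ligands, the interferon-induced T-cell attractants Cxcl9 and Cxcl10 fell in both sorted populations. Cxcl9 had log2 ratios of 0.92 in het P4 and 0.51 in WT P4, and 0.85 in het P5 and 0.34 in WT P5, against 2.98 in het MEC and 3.41 in WT MEC. Cxcl10 had 0.27 in het P4 and 0.04 in WT P4, and 0.47 in het P5 and -0.86 in WT P5, against 2.27 in het MEC and 2.98 in WT MEC. The differences from MEC were -2.48 in P4 and -2.60 in P5 for Cxcl9, and -2.47 in P4 and -2.82 in P5 for Cxcl10. Cxcl11, the other ligand of their receptor Cxcr3, was not well above background on any sorted array.

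Cxcl1, a neutrophil attractant acting through Cxcr2, had log2 ratios of 1.59 in het P4 and 2.38 in WT P4, and 2.17 in het P5 and 3.13 in WT P5, against 3.79 in het MEC and 4.05 in WT MEC. It fell in both populations, with differences of -1.94 in P4 and -1.27 in P5. Cxcl5, a ligand of the same receptor, fell in P4 by 1.23 ± 0.26 (SE; limma adjusted p = 0.036) and was not called in P5. The P4 call was lost under 5 of 10 other settings, with a limma adjusted p of up to 0.31 and the same direction in all. Cxcl14 and Cxcl12 fell in P5 relative to MEC, with differences of -3.12 and -3.19. In P4 Cxcl14 rose by 1.98 ± 0.25 (SE; limma adjusted p = 0.012), and Cxcl12, at 1.03 ± 0.27, was not called (SE; limma adjusted p = 0.058). With each array centred on its median the Cxcl14 difference of P4 from MEC was 0.24 and was not called.

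Cxcl16, a membrane-bound ligand of Cxcr6, had log2 ratios of 3.72 in het P4 and 3.36 in WT P4, and 3.2 in het P5 and 2.94 in WT P5, against 2.53 in het MEC and 2.77 in WT MEC. It rose by 0.89 ± 0.19 in P4 relative to MEC (SE; limma adjusted p = 0.036). Of 10 other settings, 5 kept this call and 4 lost it with the same direction, and with median centring the difference was -0.40. Under the main settings the receptor of Cxcl16 moved the other way. Cxcr6, known from T cells, had -0.77 in het P4 and -0.99 in WT P4, and -1.0 in het P5 and -1.26 in WT P5, against 0.10 in het MEC and 0.34 in WT MEC, and its differences of -1.10 in P4 and -1.35 in P5 were both called. It was not well above background in WT P4 or in either P5 array, which limits both differences. Under the main settings its measured Cy5 level was 1.99-fold lower in P5 than in MEC.

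Of the other receptors, Ccr7, which guides dendritic cells and T cells to lymph nodes, had log2 ratios of -0.29 in het P4 and -0.15 in WT P4, and -0.09 in het P5 and -0.12 in WT P5, against 0.58 in het MEC and 0.99 in WT MEC. It fell in both, with differences of -1.0 in P4 and -0.89 in P5. Ccr2, the receptor of Ccl2 and Ccl7 on monocytes, was not well above background on any sorted array. Its log2 ratios there were -0.08 in het P4, -0.13 in WT P4, -0.11 in het P5 and -0.16 in WT P5, against 0.53 in het MEC and 1.03 in WT MEC. Under the main settings it was at least 1.64-fold lower in P4 than in MEC (limma adjusted p = 0.037). In P5 it was at least 1.83-fold lower (limma adjusted p = 0.057). Ccr2 passed the filter on dim probes only through the MEC arrays, where it was higher, so its call in P4 is no separate support for a fall. It is counted among the genes that fell in P4. Its other probe, not well above background on any array, differed from MEC by 0.09 in P4 and -0.05 in P5. The P4 call was lost with local backgrounds as given, where the log2 difference was -0.47, and with median centring, where it was -0.10 (limma adjusted p = 0.73). Ccrl2 fell in P4 by 1.54 and was not called in P5.

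Ccr3, the receptor of Ccl11 on eosinophils, was the receptor that rose: it had 0.62 in het P4 and 0.46 in WT P4, and 0.42 in het P5 and 0.15 in WT P5, against -0.09 in het MEC and -0.55 in WT MEC. The rise of 0.86 ± 0.14 was called in P4 (SE; limma adjusted p = 0.022) but not with median centring, where it was 0.28. Ccl19, a ligand of Ccr7, rose by 2.29 in P4 on the probe used, while its other probe gave -0.52. Mouse Ccl19 has near-identical copies in the genome, so the value is uncertain.

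**Figure D3:**
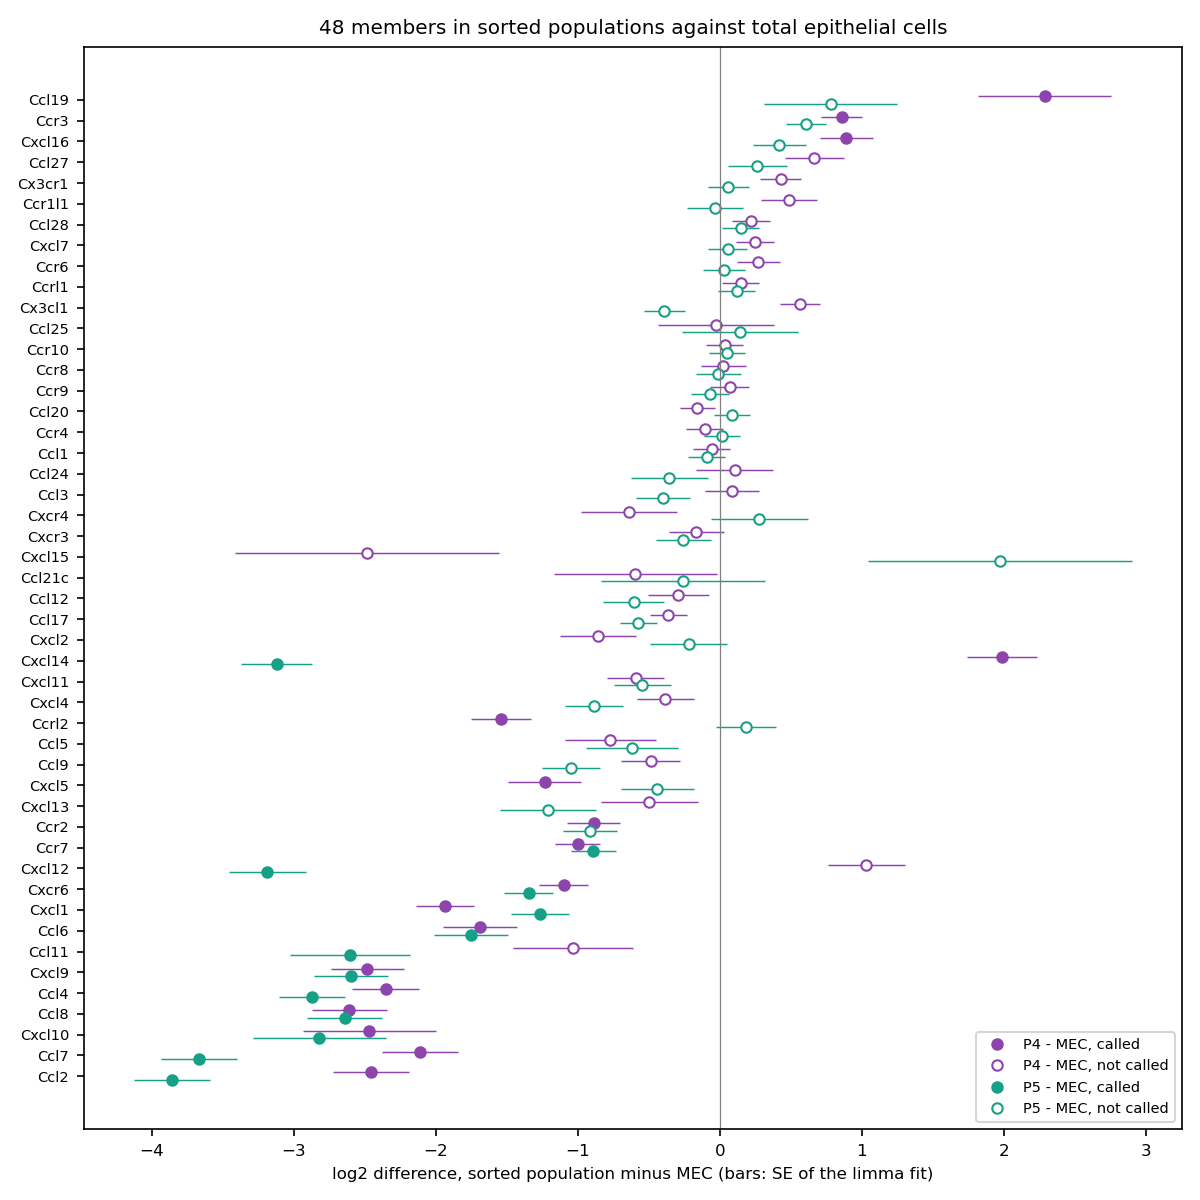
Log2 difference from MEC (x axis) for 48 of the 49 tested chemokine genes (rows), P4 in purple and P5 in green; bars are standard errors of the limma fit and filled points were called. Ccl2, Ccl7, Ccl8, Ccl4, Cxcl9 and Cxcl10 lie more than 2 log2 units below 0 in both populations, and Cxcl14 and Cxcl12 lie on opposite sides in P4 and P5.

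Markers of other cell types are given beside these genes. Of 10 fibroblast markers, 8 fell in P4 and 10 in P5. Their summed Cy5 level was 41545 in het P4 and 31033 in WT P4, and 21257 in het P5 and 10860 in WT P5, against 200813 in het MEC and 375321 in WT MEC. Of 7 endothelial markers, 6 fell in each sorted population, with summed levels of 1909 (WT P5) to 3173 (het P4) in sorted cells, against 16987 in het MEC and 19391 in WT MEC. Of 6 adipocyte markers, 3 fell in P4 and 4 in P5. Of 21 leukocyte markers, 4 fell and 1 rose in P4, and 3 fell in P5: H2-Aa, H2-Ab1 and Tyrobp fell in both. The other that fell in P4 was Cd14, at -3.37, which is also on the luminal list, and Cd3e rose by 0.97. Not called were 16 in P4 and 18 in P5, and the median differences of the leukocyte markers were 0.02 and -0.34. The summed level of the leukocyte markers was 20828 in het P4 and 10844 in WT P4, and 18541 in het P5 and 14429 in WT P5, against 22428 in het MEC and 26047 in WT MEC. The pan-leukocyte marker Ptprc had log2 ratios of -4.47 in het P4 and -5.04 in WT P4, and -5.0 in het P5 and -5.76 in WT P5, against -4.42 in het MEC and -3.68 in WT MEC. The part of these cell types in the chemokine values was not tested.

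Of 9 tested ligands and receptors outside the symbol rule, 3 fell and 2 rose in P4 relative to MEC, and 3 fell in P5. Darc, the endothelial and red-cell receptor that takes up chemokines, fell by 1.85 in P4 and fell by 2.16 in P5 relative to MEC, and Ccbp2, a scavenging receptor of inflammatory CC ligands, fell by 1.08 in P4 and fell by 1.32 in P5. Cmtm8 fell by 2.80 in P4 and Cmkor1 fell by 3.14 in P5. The receptors Xcr1 and Cmklr1 rose in P4, by 2.13 and 1.53. The cytokine Il1b had differences of -3.53 in P4 and -4.19 in P5, both called. Rgs1, which limits chemokine receptor signalling, was at -2.80 in P4 and -3.24 in P5, and Dpp4, a peptidase that trims chemokines, was at -2.52 in P4 and -2.46 in P5, all called. In all, 8 of 27 signalling and inducing genes fell in P4 and 5 in P5, against 8.47% and 4.28% of all genes. None rose, against 9.43% and 2.11% of all genes.

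Without the het P4 or the WT P4 array, no gene was called in either comparison with MEC. Without WT P5, 5 chemokine genes were called in P5 against MEC, and without het MEC 23. Local backgrounds as given left 10 calls in P4 against MEC, and Cxcl1, Cxcl10 and Ccr7 were then not called in P5.

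In the genotype comparison, 4 CXC ligands known as neutrophil attractants were lower in the het arrays of both sorted populations: Cxcl2, Cxcl5 and Cxcl15 by at least 2-fold in P4 and in P5, and Cxcl1 by less. They were singled out for these values. With local backgrounds as given, only Cxcl5 of the 4 was still 2-fold lower in P4. They lie close together on chromosome 5, where their neighbours Cxcl7 and Cxcl4 did not share this direction. Over the 3 populations no chemokine gene was called by limma, nor was any of the 25062 genes, while 8 of 49 chemokine genes and 14.7% of all genes had an unadjusted p below 0.05. The 8 were Cxcl2, Cxcl5, Cxcl1, Cxcl13 and Ccl20, which were lower in het, and Cx3cr1, Cxcl14 and Ccr3, which were higher. The smallest limma adjusted p was 0.28.

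Within P4, 5 chemokine genes were at least 2-fold lower in het than in WT, against 0.487% of all genes, and 3 were at least 2-fold higher, against 3.52%; either way this was 8, against 4.01%. Within P5 the counts were 3 lower, against 0.922% of all genes, and 3 higher, against 2.27%, or 6 either way, against 3.19%. In MEC 2 were lower, against 1.06% of all genes, and 1 was higher, against 1.18%, or 3 either way, against 2.23%. With local backgrounds as given, 1 was lower and 3 were higher in P4, and none was lower in MEC. At least 2-fold lower in 2 or more of the 3 populations were Cxcl2, Cxcl5, Cxcl13 and Cxcl15, 4 of 49, against 0.133% of all genes (33 of 24889). With local backgrounds as given only Cxcl5 met this, against 0.0442% of all genes, and under the other 8 settings 3 to 5 members did, against 0.0881% to 1.13%. Ccl19 alone was at least 2-fold higher in 2 populations, against 1.68% of all genes, and was not with median centring or as the mean over probes. The shift was not shared by the class in the sorted cells: the 49 had median het minus WT differences of 0.16 (P4), 0.20 (P5) and -0.23 (MEC), against 0.08, 0.07 and 0.00 over all genes.

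Promoters of 4 genes of this stretch are shown because their het arrays were lower in both P4 and P5. Cxcl5 was lower in both as well, but the promoter set held no entry for it, so its promoter is not shown. In MEC, Cxcl15 was higher in het. In RefSeq on GRCm38.p6 the order of the members is Cxcl5, Cxcl7, Cxcl4, Cxcl15, Cxcl1 and Cxcl2. The promoters of Cxcl7 and Cxcl4, which did not share this direction, are not shown. The gene between Cxcl4 and Cxcl15 is named Gm1960 on the array and Cxcl3 in RefSeq. It lies outside the symbol rule and was added after its values were seen. Each sequence runs 5′ to 3′ from 250 bases before the gene's start to 50 bases after it, on the + strand. Capitals mark matches to the NF-kB consensus, to which the inflammatory factor NF-kB binds, or to TATAAA, the core of the TATA box. Both strands were searched, and the NF-kB matches of the 2 strands overlap. The windows are chr5:90785851-90786150 for Cxcl3, chr5:90794284-90794583 for Cxcl15, chr5:90890995-90891294 for Cxcl1 and chr5:90903649-90903948 for Cxcl2.
Cxcl3: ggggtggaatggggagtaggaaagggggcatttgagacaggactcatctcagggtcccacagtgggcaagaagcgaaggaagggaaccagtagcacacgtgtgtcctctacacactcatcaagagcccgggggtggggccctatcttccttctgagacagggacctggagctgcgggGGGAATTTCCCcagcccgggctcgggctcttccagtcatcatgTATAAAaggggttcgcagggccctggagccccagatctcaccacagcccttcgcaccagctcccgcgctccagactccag
Cxcl15: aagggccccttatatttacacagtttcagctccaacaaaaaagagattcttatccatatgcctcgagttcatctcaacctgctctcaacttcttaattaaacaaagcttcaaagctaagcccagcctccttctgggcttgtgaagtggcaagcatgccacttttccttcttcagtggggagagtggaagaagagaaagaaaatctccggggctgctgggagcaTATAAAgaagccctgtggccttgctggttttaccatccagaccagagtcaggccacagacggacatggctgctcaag
Cxcl1: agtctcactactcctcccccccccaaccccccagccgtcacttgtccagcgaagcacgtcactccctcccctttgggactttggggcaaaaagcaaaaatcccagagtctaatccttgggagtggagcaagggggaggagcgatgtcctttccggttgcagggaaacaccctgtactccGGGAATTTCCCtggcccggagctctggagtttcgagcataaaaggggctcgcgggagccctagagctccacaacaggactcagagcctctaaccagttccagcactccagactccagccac
Cxcl2: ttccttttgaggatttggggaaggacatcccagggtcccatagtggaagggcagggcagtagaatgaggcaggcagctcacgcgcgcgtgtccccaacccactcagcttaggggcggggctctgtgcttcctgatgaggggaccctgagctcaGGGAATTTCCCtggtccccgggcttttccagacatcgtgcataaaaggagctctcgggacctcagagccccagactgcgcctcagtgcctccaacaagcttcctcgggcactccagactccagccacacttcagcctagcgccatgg

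The NF-kB consensus began at -73 from the start of Cxcl3, at -71 in Cxcl1 and at -97 in Cxcl2, and was not found in the window of Cxcl15. TATAAA was found at -30 in Cxcl3 and -27 in Cxcl15. The p53 family half-site, a part of the element to which p63 and its relatives bind, was searched in the same way and was not in these 4 windows. Looser matches were not searched, so this does not show that p63 sites are lacking. Of 32851 promoters of the same length, 8.46% held the NF-kB consensus, 13.6% TATAAA and 8.36% the p53 family half-site. Of the 37 chemokine genes with a promoter entry, Cxcl3 not counted, the numbers were 11, 11 and 4. A match is a description of these letters and not a binding site.

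Cxcl5, a neutrophil attractant of epithelial cells, had raw Cy5 signals of 68.7 in het P4 and 284 in WT P4, 148 in het P5 and 787 in WT P5, and 340 in het MEC and 718 in WT MEC. Its log2 ratios were -2.72 in het P4 and -1.13 in WT P4, -1.95 in het P5 and -0.32 in WT P5, and -1.06 in het MEC and -0.33 in WT MEC. The het array was lower in all 3 populations, with log2 differences of -1.59 in P4, -1.63 in P5 and -0.73 in MEC. Over the populations the difference was -1.32 ± 0.21 (SE; limma adjusted p = 0.28). Raw signals, given here and for the next genes, are not normalized, and their median was lower in each het array than in its WT counterpart. Cxcl4, too, had lower raw Cy5 signals in het P4 than in WT P4 (188 against 201) and in het P5 than in WT P5 (163 against 251). Its log2 ratio was higher in het in both.

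Cxcl2, known as MIP-2, had raw Cy5 signals of 176 in het P4 and 434 in WT P4, 217 in het P5 and 1079 in WT P5, and 778 in het MEC and 1605 in WT MEC. Its log2 ratios were 1.57 in het P4 and 2.97 in WT P4, 1.93 in het P5 and 3.88 in WT P5, and 2.69 in het MEC and 3.56 in WT MEC. All 3 het arrays lay below all 3 WT arrays, with differences of -1.41 in P4, -1.94 in P5 and -0.87 in MEC. Over the populations this was -1.41 ± 0.22 (SE; limma adjusted p = 0.28). The sign in P4 and MEC depended on the handling of outlying local backgrounds: with backgrounds as given the differences were 0.06 in P4 and 0.28 in MEC. Under the other 9 settings the P4 difference lay between -1.48 and -1.05.

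Cxcl1, known as KC, differed less, by -0.79 in P4, -0.96 in P5 and -0.26 in MEC. Its raw Cy5 signals were 2863 in het P4 and 7357 in WT P4, 5573 in het P5 and 19879 in WT P5, and 30872 in het MEC and 54296 in WT MEC. The neighbour Gm1960 had 65.1 in het P4 and 191 in WT P4, 67.0 in het P5 and 199 in WT P5, and 172 in het MEC and 563 in WT MEC. Its het minus WT differences were -1.65 (P4), -1.32 (P5) and -1.55 (MEC). With backgrounds as given they were -0.37, -0.91 and -0.38.

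Cxcl15 went the same way in the sorted cells and the opposite way in MEC. Its raw Cy5 signals were 71.5 in het P4 and 158 in WT P4, 763 in het P5 and 5279 in WT P5, and 1888 in het MEC and 584 in WT MEC. The log2 differences were -1.27 in P4, -2.17 in P5 and 1.80 in MEC. Over the settings tried they ran from -2.15 to -0.27 in P4, from -2.17 to -1.50 in P5 and from 1.55 to 2.88 in MEC; the P4 value nearest 0 came with local backgrounds as given. Its other probe gave -0.96, -1.97 and 1.31. Luminal markers are given beside Cxcl15, which was higher in P5 than in P4: their summed Cy5 level was 189942 in het P4 and 201478 in WT P4, 1064560 in het P5 and 1109150 in WT P5, and 804016 in het MEC and 450893 in WT MEC. The keratins Krt8, Krt18 and Krt19 differed by 1.28, 1.01 and 1.13 in MEC and by -0.75, -0.63 and -0.33 in P5. Pgr, the progesterone receptor, differed by -2.17 in P5. Elf5 and Kit, on the same list, went the other way, by 1.02 and 0.71 in P5 and by -0.14 and -0.81 in MEC. Of 10 luminal markers, 4 were higher in het in P4, 4 in P5 and 6 in MEC. Their part in the Cxcl15 values was not tested. The members in between, Cxcl7 and Cxcl4, are platelet chemokines, and a processed form of Cxcl7 is also known to attract neutrophils through Cxcr2. Both were higher in het in P4 and P5, except that Cxcl4 was at -0.06 in P5 with median centring. Cxcl7 differed by 0.34 in P4, 0.13 in P5 and 0.12 in MEC; Cxcl4 differed by 0.61 in P4, 0.43 in P5 and -0.10 in MEC. The main receptor of the neutrophil attractants, Il8rb (an older symbol of Cxcr2), had log2 ratios of 0.06 in het P4 and -0.05 in WT P4, 0.16 in het P5 and 0.18 in WT P5, and 0.06 in het MEC and 0.01 in WT MEC.

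**Figure D4:**
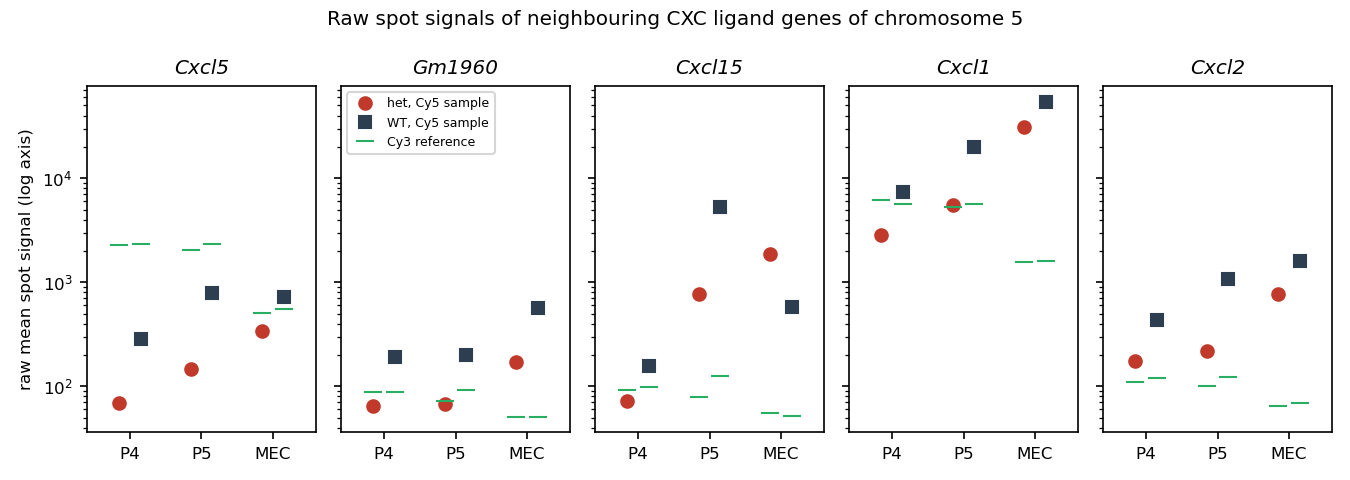
Raw mean spot signal (y axis, log scale) of the neighbouring CXC ligand genes of chromosome 5 in each population (x axis). Red circles are het and dark squares WT samples in Cy5, and green lines the common reference in Cy3 on the same array. The het sample lies below the WT sample in every panel and population except Cxcl15 in MEC. Raw signals are not normalized, and the median Cy5 signal over all non-control spots was also lower in the het arrays. It was 113 in het P4 and 122 in WT P4, 113.5 in het P5 and 158 in WT P5, and 173 in het MEC and 188 in WT MEC.

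In a fit of the 4 sorted arrays alone, which has 1 residual degree of freedom, 1864 genes were called between het and WT, 7.44% of all genes, with 6.34% higher and 1.1% lower in het. Of the 49 chemokine genes, 5 fell in het: Cxcl15 (a log2 difference of -1.72), Cxcl2 (-1.68), Cxcl5 (-1.61), Ccl21c (-1.47) and Cxcl1 (-0.87). The limma adjusted p were 0.0016, 0.00071, 0.00044, 0.037 and 0.0092. Another 5 rose: Ccl19 by 1.49, Ccl25 by 1.12, Ccl5 by 1.02, Cxcl14 by 0.84 and Ccl24 by 0.69. Gm1960 fell by 1.49 (limma adjusted p = 0.00081). For Cxcl14 the het minus WT difference in Cy5 alone was -0.20 in P4 and 0.76 in P5, so its direction in P4 depends on the reference channel. None of these calls was made in the fit of all 6 arrays. Leaving out 1 MEC array gives the same fit as the 4 sorted arrays, since the population term takes up the MEC array that is left, and so adds no support.

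**Figure D5:**
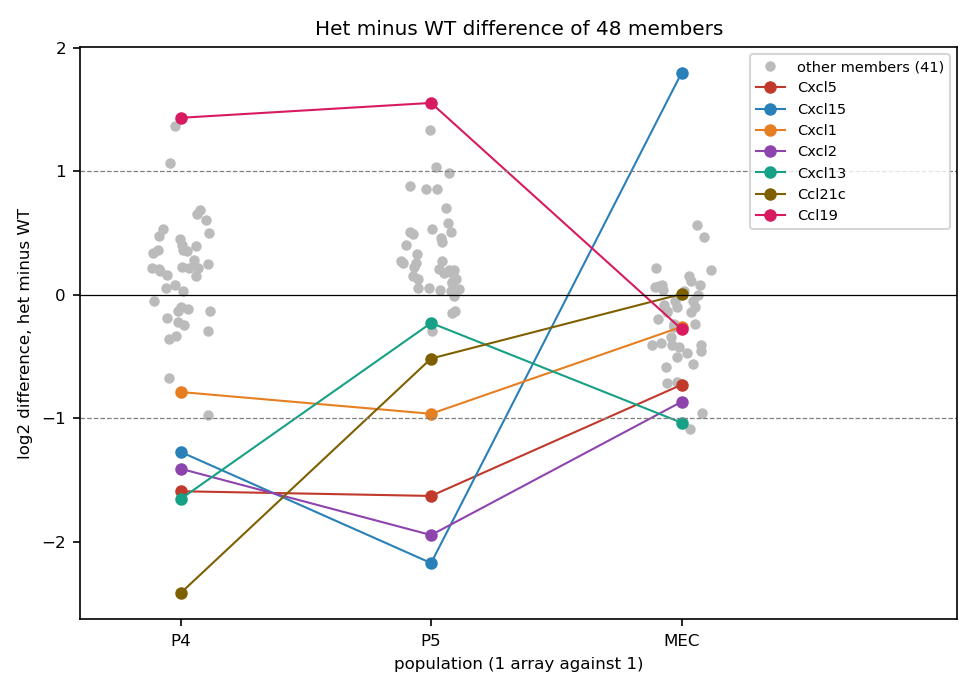
Log2 difference of het minus WT (y axis) in P4, P5 and MEC (x axis), 1 array against 1, for 48 of the 49 tested chemokine genes; coloured lines join the values of 7 genes and grey points are the other 41. Dashed lines mark 2-fold. Cxcl5 and Cxcl2 lie below -1 in P4 and P5, and Cxcl15 changes side in MEC.

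Other ligands differed between genotypes in 1 or 2 populations. Cxcl13, the B-cell attractant, had log2 ratios of 0.16 in het P4 and 1.81 in WT P4, 0.16 in het P5 and 0.39 in WT P5, and 0.97 in het MEC and 2.0 in WT MEC. In het P4 its probe was not well above background. Under the main settings its measured Cy5 level there was 3.12-fold lower than in WT P4, which is not a lower bound. With median centring the het minus WT log2 difference in P4 was -1.07. With backgrounds as given the het minus WT difference was -0.38 in P4 and 0.00 in MEC. Ccl21c, a ligand of Ccr7, had 1.03 in het P4 and 3.44 in WT P4, 2.31 in het P5 and 2.83 in WT P5, and 2.83 in both MEC arrays. Its difference of -2.41 in P4 was the lowest of the chemokine genes there, but with local backgrounds as given it was -0.97, and Cxcl5 was the lowest under 5 of the 9 other settings. Near-identical Ccl21 copies exist in the mouse genome, so the value cannot be given to 1 of them.

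Ccl19, which acts on the same receptor, had log2 ratios of 5.36 in het P4 and 3.93 in WT P4, 3.92 in het P5 and 2.36 in WT P5, and 2.22 in het MEC and 2.50 in WT MEC. Its differences of 1.43 in P4 and 1.55 in P5 were the highest of the chemokine genes in those populations, though in P4 not under every setting. The other Ccl19 probe gave -2.41 in P4 and 0.14 in P5, so the direction in P4 depends on the probe. The P4 difference was -0.49 as the mean over the probes. Ccl25, a gut and thymus attractant, was 1.36 higher in het P4 on the probe used, and the other probes gave -0.55 and 0.02. Ccl5, the T-cell attractant RANTES, was 1.07 higher in het P4 and 0.98 higher in het P5, and 0.14 lower in het MEC than in WT MEC. Its other probe, well above background on all 6 arrays, gave 0.23 in P4 and 0.75 in P5, and -0.57 in MEC. With median centring the P4 difference was 0.47.

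In P5, Cxcl10 was 1.33 and Cxcl14 was 1.03 higher in het than in WT. In MEC the lowest difference was that of Ccl8, at -1.08. Ccl20, the epithelial ligand of Ccr6, had log2 ratios of -0.07 in het P4 and 0.27 in WT P4, 0.20 in het P5 and 0.49 in WT P5, and 0.06 in het MEC and 0.45 in WT MEC. It was lower in het in all 3 populations, with differences of -0.33, -0.29 and -0.39. In WT P4 its probe was not well above background, so the direction in P4 is uncertain. Ccl28, made by mucosal epithelium, had 0.39 in het P4 and 0.18 in WT P4, 0.34 in het P5 and 0.07 in WT P5, and 0.10 in het MEC and 0.02 in WT MEC. Its differences were 0.21, 0.27 and 0.08.

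Lower in het in all 3 populations were 6 of 49 chemokine genes, against 13.1% of all genes, and higher in all 3 were 10, against 26.2%. None of the 16 tested receptors was 2-fold apart between genotypes in any population, although Cxcr6 reached 1.35 in P4 by the scanner software's log ratio. Outside the symbol rule, the receptor Xcr1 was 2.38 higher in het P4 and 1.85 higher in het P5, and Cmklr1 was 1.94 and 1.22 higher. Of those 9 ligands and receptors, 8 were higher in het in P4, 8 in P5 and 5 in MEC. Their median differences were 0.12, 0.33 and 0.05, against 0.08, 0.07 and 0.00 over all genes. The differences of the 16 tested receptors under the symbol rule ran from -0.95 for Cxcr4 in MEC to 0.54 for Ccr1l1 in P4. Ccr1, the receptor not tested, had log2 ratios of -0.16 in het P4 and -0.02 in WT P4, -0.08 in het P5 and 0.19 in WT P5, and 0.20 in het MEC and 0.09 in WT MEC, all from probes not well above background.

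Inducers and markers are given beside these genotype differences. Of 27 signalling and inducing genes, 16 were higher in het in P4, 17 in P5 and 11 in MEC. Their median differences were 0.06, 0.13 and -0.13, against 0.08, 0.07 and 0.00 over all genes. At least 2-fold apart in P5 were Il6, Rgs2 and Arrb1, higher in het by 1.79, 1.33 and 1.06, and Tnf, which was 1.28 lower in het P5 than in WT P5 and differed by -0.02 in P4 and -0.21 in MEC. None was 2-fold apart in P4, and Rgs2, at -1.06, was in MEC. Nfkbia differed by -0.34 in P4, -0.63 in P5 and 0.00 in MEC, whereas Il1b differed by 0.14 in P4, 0.65 in P5 and -0.85 in MEC. The share of all genes higher in het by any amount was not counted. At least 2-fold higher in het were 3.52% of all genes in P4 and 2.27% in P5, against 0.487% and 0.922% lower. Leukocyte markers were higher in het in 17 of 21 cases in P4 and in 17 of 21 in P5, and in 7 of 21 in MEC. Their median differences were 0.31, 0.37 and -0.15. Their summed Cy5 level was 20828 in het P4 and 10844 in WT P4, 18541 in het P5 and 14429 in WT P5, and 22428 in het MEC and 26047 in WT MEC. Fibroblast markers were higher in het in 8 of 10 cases in P4, in 10 of 10 in P5 and in 1 of 10 in MEC, with median differences of 0.50, 0.71 and -0.67. The lower CXC ligands in the het sorted arrays stood beside higher leukocyte and fibroblast sums in the same arrays. The part of these markers in the genotype values was not tested.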

How the data were processed

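RNA of 6 samples was measured on 2-colour whole mouse genome arrays. Per the file headers, the authors used Agilent Feature Extraction 9.5.3.1 to read the slides. Its deposited output holds raw mean and local background intensity per spot, without normalization. It also holds the program's corrected log10 ratio (red over green), as deposited by the authors. The deposited series table holds log2 ratios. Its columns correlated with the scanner log ratios at 0.988 to 0.999 across probes, with a slope of about 1 and medians of -0.04 to 0.10, which gives sample over reference as the direction.

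From these files, intensities were background corrected with normexp (offset 50, which compresses the ratios of dim probes) and loess in R 4.3.3 with limma 3.58.1. Local backgrounds flagged by the scanner software, or over 5 median absolute deviations from the array's median, were replaced by that median (709 to 953 Cy5 backgrounds per array). Between 125 and 310 outlier spots per array were left out, and spots of a probe were averaged. No chemokine probe was saturated. A gene was kept if 2 or more of the 6 arrays had its probe well above background (Cy5). Folds for dim probes set the bright group's mean against the lowest signal well above background, or the dim probe's own where higher. Where the dim probe's own signal was used, the fold is a measured value and not a bound. These folds hold for the main settings only.

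P-values come from limma's moderated test with Benjamini-Hochberg adjustment over all genes tested; with no replicates, noise and any interaction of population with genotype form the residual. The P4 against P5 fit was tested on simulated shifts. The members, lists, tests and alternatives were chosen with earlier results of these data known. Every member called in a population comparison, at least 2-fold apart the same way in 2 populations, or at the extreme of a genotype difference is given with its 6 values, as are 12 members best known in epithelium or stroma. RefSeq accessions matched 47 of the 51 genes. Promoters are from RefSeq (GRCm38.p6). The precision of every value is limited by the number of arrays. The values of 1 member are not reported or drawn here, though it is counted in the totals.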

Additional observations from a re-analysis of the deposited data

Results flagged for a closer look

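The het minus WT difference of Cxcl15 ran in opposite directions between populations: -1.27 in P4 and -2.17 in P5, against 1.80 in MEC, on the log2 scale. Each value sets 1 array against 1, and the difference between populations was not tested. The other probe of the gene showed the same directions, with -0.96 in P4, -1.97 in P5 and 1.31 in MEC. With local backgrounds as given, the P4 difference of the probe used was -0.27.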

How the results depend on the processing

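No paired analysis was possible because each group has 1 array and the labels give no replicate numbers, and slide as a block is absorbed by the population term. Chemokine genes called in P4 against P5 numbered 7, and 20 with the P4 and P5 arrays alone; leaving out 1 array gave 0 to 20. Calls in P4 against MEC numbered 17, but 10 with local backgrounds as given and 30 with median centring, and leaving out 1 array gave 0 (without either P4 array) to 25. Calls in P5 against MEC numbered 13, but 29 with median centring, and leaving out 1 array gave 0 (without either P4 array) to 23. Median centring shifted the median of all genes to -0.44 in P4 and -0.40 in P5 against MEC, and with it 16605 and 14538 of all genes were called. Het against WT over populations had 0 calls, and 10 with the P4 and P5 arrays alone; leaving out 1 array gave 0 to 10. At least 2-fold apart in P4 were 8 genes, 4 with local backgrounds as given (1 lower, against 5) and 5 as the mean over probes. In MEC the count was 3, but 1 with local backgrounds as given, 5 with median centring and 1 in Cy5 alone. The sign turned for Cxcl16 in P4 against MEC (-0.40 with median centring), for Ccl19 in het P4 against WT P4 (-0.49 as the mean over probes) and for Cxcl2 there (0.058 with local backgrounds as given). The cause was not tested. Of 372 other recomputed tested values of single genes, 337 kept direction and call, 34 kept direction and lost the call, and 1 turned. These are not independent checks. The shares of all genes called without 1 array are mostly not given, so those counts cannot be read as particular to chemokine genes. Changing the filter on dim probes left each difference as it was, and the mean over probes did so for genes with 1 probe. The scanner software's log ratio and the deposited series table hold nearly the same values. When 1 array was left out, 131 of 222 kept the call and the other 91 lost it with the same direction. Signal over background limits Ccl22 and Ccr1, which were not measured above background, and the sorted values of Ccr2, Cxcl11 and Ccl1. It also limits Cxcr6 in WT P4 and both P5 arrays, Cxcl13 in het P4, and Ccl20, Ccr7 and Ccr10 in WT P4.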
